A study of Mus musculus with 2 samples.

Results

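The interferon-gamma and IL-12 circuit was followed through 10 of the 32285 genes in the count matrices of 2 libraries of mouse gut immune cells. The genes were taken by name: the cytokine genes Ifng, Il12a and Il12b, the receptor genes Ifngr1, Ifngr2, Il12rb1 and Il12rb2, the chemokine genes Cxcl9 and Cxcl10, and their receptor gene Cxcr3. No measured value entered the rule that chose them, but the list was drawn up with earlier results of these data known. The cells came from the small intestine lamina propria, the connective tissue under the gut epithelium, of female littermate mice aged 10 to 12 weeks. The CD4-Cre; Aster-A F/F pool (CD4-Cre) was set against the Aster-A F/F pool (F/F), so both carried the floxed alleles of Aster-A, the endoplasmic reticulum sterol transporter encoded by Gramd1a. CD4-Cre is active from a thymic stage that precedes the split into CD4 and CD8 αβ T cells, so both lineages are its targets, while B, plasma and myeloid cells are not. All mice had fasted for 16 h and had received olive oil by gavage 2 h before the cells were taken. Live CD45+ cells without EPCAM, Ter119 and CD31 were sorted, 100000 from each animal, and 3 animals of a genotype went together into 1 library for 10x Genomics 3′ sequencing.

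IL-12 is a heterodimer of the p35 chain, encoded by Il12a, and the p40 chain, encoded by Il12b, which IL-23 also uses. It is made mainly by dendritic cells and macrophages, binds the receptor chains IL12RB1 and IL12RB2 on T and NK cells, and drives them through STAT4 to make interferon-gamma. Interferon-gamma binds IFNGR1 and IFNGR2, and its signal turns on, among many genes, the chemokines CXCL9 and CXCL10, which draw in cells that carry CXCR3. In the gut, the circuit is known for defence against intracellular microbes and for its part in inflammation.

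The upstream sequences of Ifng, Cxcl9 and Cxcl10 are shown because Ifng marks the senders, and because Cxcl9 and Cxcl10, neighbours on 1 chromosome and both classical interferon-gamma targets, differ in the classes that hold most of their UMIs here. Each is the 250 bases before the RefSeq start site on GRCm38.p6, 5′ to 3′ on the gene's strand, at chr10:118440796-118441045 (plus strand) for Ifng, chr5:92328080-92328329 (minus strand) for Cxcl9 and chr5:92348890-92349139 (minus strand) for Cxcl10. Capitals mark matches, on either strand, to the GAS pattern TTCNNNGAA that STAT4 dimers bind, the ISRE pattern of interferon regulatory factors (GAAA, any 2 bases, GAAA), and the kappaB pattern (GGG, any 3 bases, TTCC); no match overlapped another.
Ifng: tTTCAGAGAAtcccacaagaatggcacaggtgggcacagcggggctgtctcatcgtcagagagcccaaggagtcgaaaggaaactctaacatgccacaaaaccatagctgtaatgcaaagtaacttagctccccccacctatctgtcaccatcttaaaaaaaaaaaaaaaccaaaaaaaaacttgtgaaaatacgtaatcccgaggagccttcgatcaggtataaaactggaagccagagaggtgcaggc
Cxcl9: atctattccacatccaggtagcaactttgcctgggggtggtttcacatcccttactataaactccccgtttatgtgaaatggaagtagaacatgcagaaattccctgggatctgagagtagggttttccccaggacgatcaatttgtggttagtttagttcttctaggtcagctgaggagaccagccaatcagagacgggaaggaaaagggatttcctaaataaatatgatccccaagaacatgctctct
Cxcl10: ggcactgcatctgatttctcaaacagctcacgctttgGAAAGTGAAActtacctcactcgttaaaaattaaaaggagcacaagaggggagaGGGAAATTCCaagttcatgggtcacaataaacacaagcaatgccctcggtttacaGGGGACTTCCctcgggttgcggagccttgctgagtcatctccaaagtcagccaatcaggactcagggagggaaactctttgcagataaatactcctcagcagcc
Windows of 300 bases, which add the 50 bases after the start site, were searched. The Ifng window held a GAS match, TTCAGAGAA, 249 bases upstream. The Cxcl10 window held an ISRE match, GAAAGTGAAA, 213 bases upstream and 2 kappaB matches, GGGAAATTCC and GGGGACTTCC, 159 and 104 bases upstream. The Cxcl9 window held none of these letters. Among 32851 such windows of the mouse genome, 8.30% held a GAS match, 3.44% an ISRE match and 5.56% a kappaB match. Of the other members, Il12rb2 had a GAS match 123 bases upstream and Ifngr2 a kappaB match 75 bases upstream, Il12a, Il12b, Ifngr1 and Cxcr3 had none, and Il12rb1 was not looked at.

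The CD4-Cre library held 200580083 unique molecular identifiers (UMIs, each 1 captured RNA molecule), and 12526 of its barcodes were kept as cells, with a median of 14031 UMIs. The F/F library held 222838658 UMIs and 12594 kept cells with a median of 15319.5 UMIs. The libraries shared 47 barcodes, under 1% of the kept cells of either. Cells were clustered without the circuit genes and placed in 21 classes by marker genes. A class with "-like" in its name rests on such markers, and the others are called by a leading gene (Il17a T, Zbtb16 T, Klra T, Trdc T, Hs6st2 lymphoid, Top2a myeloid). RNA of pancreatic and stomach genes, which come from outside these cells, differed in kind between the libraries. The pancreatic genes were lower in CD4-Cre than in F/F cells in all 21 classes, with 30.02 and 840 CPM (the UMIs of a gene or list scaled by all UMIs of the class to the usual CPM base) in CD4 T-like, 13.8 and 1400 CPM in regulatory T-like, 2.01 and 991 CPM in Zbtb16 T, 0 and 406 CPM in cDC1-like, 1.73 and 833 CPM in macrophage-like and 0.258 and 912 CPM in plasma-like cells. The stomach genes were higher in CD4-Cre than in F/F cells in all 21 classes, with 437 and 38.1 CPM in CD4 T-like, 415 and 49.3 CPM in regulatory T-like, 425 and 25.7 CPM in Zbtb16 T, 91.4 and 10.3 CPM in cDC1-like, 239 and 24.2 CPM in macrophage-like and 329 and 15.9 CPM in plasma-like cells. The part of such RNA in the results was not tested. Cd4 was read at 1474 CPM in CD4-Cre and 282 CPM in F/F CD4 T-like cells. Gramd1a was read at 62.8 and 72.7 CPM in the same cells, but 3′ tags need not cover the floxed part and so do not check the deletion. Because each genotype was a single pool, intervals below are 95% counting intervals that leave out the variation between mice, and no p-value is given. Ifng, Il12rb2 and Cxcl10 each overlap another gene (Gm49751, Serbp1 and Art3), and since the strand used in counting is not given in the sources used here, reads of those genes cannot be told apart from theirs.

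A level below is the CPM of a gene over the summed UMIs of a class. A ratio, CD4-Cre over F/F, was given in 9 classes with at least 100 cells in both libraries and for members with at least 20 UMIs over both. It was called past the fold when it was at least 1.5 or at most 0.667 and its interval left out 1. Shares of cells with a UMI are also given after each cell was thinned to 1500 UMIs, for which 0 to 34 CD4-Cre and 0 to 41 F/F cells of a class were too shallow and left out.

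Ifng (ENSMUSG00000055170, chr10:118441046-118445892, plus strand) was a transcript of T, NK and innate lymphoid cells. These classes held 85.6% of its 731 UMIs in CD4-Cre cells and 80.1% of its 623 UMIs in F/F cells, and most of the rest lay in mixed clusters. Zbtb16 T cells, an innate-like T cell class marked by the transcription factor gene Zbtb16, were the main source, with 35.2% of all Ifng UMIs in CD4-Cre and 29.4% in F/F cells, though they were 5.85% and 2.75% of the cells. Trdc, a γδ T cell receptor gene, was found in 30.6% of them in CD4-Cre and 33.5% in F/F. The αβ gene Trac was found in 51.2% and 48.0%. Klra T cells had Trdc in 30.3% and 27.7%. Neither class is thus shown to be αβ T cells alone.

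The level of Ifng in Zbtb16 T cells was 103 CPM (91.2 to 117, 257 UMIs) in CD4-Cre and 147 CPM (126 to 170, 183 UMIs) in F/F cells. NK and ILC1-like cells came next in the F/F library, with 75.6 CPM (49.4 to 111, 26 UMIs) in CD4-Cre and 142 CPM (107 to 185, 56 UMIs) in F/F cells. In the F/F library these classes did not differ beyond their intervals. CD4 T-like cells had 64.4 CPM (53.3 to 77.1) in CD4-Cre and 57.6 CPM (44.5 to 73.4) in F/F cells, Il17a T cells 74.9 and 58.5 CPM, Klra T cells 48.8 and 53.8 CPM, and CD8 T-like cells 48.1 and 49.8 CPM in the same order, and the intervals of these 4 classes overlapped within each library. ILC2-like cells had 40.01 and 74.6 CPM and Hs6st2 lymphoid cells 36.5 and 53.0 CPM, each from 11 to 14 UMIs. Trdc T cells, at 10.3 and 13.8 CPM, and regulatory T-like cells, at 7.41 and 17.9 CPM, had the lowest values of the 12 lymphoid classes.

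The transcript was sparse even in its main source. A UMI of Ifng was found in 161 of 733 Zbtb16 T cells (22.0%) in the CD4-Cre library and in 126 of 346 (36.4%) in the F/F library. After thinning, the shares were 11.8% (9.55 to 14.4) and 17.7% (13.8 to 22.2), whose intervals overlap. In plasma-like cells, which should lack the gene, 0.205% of CD4-Cre and 0.215% of F/F cells had one, with a median depth of 17386 UMIs in CD4-Cre and 17489 UMIs in F/F. Zbtb16 T cells had median depths of 3307 and 3555.5 UMIs. No Ifng UMI was found in cDC1-like cells, where 0 of 307 CD4-Cre cells allows a share of up to 0.977% and 0 of 223 F/F cells up to 1.35%. In Zbtb16 T cells the highest cell held 9 UMIs in each library, and the 5 highest held 30 of the 257 UMIs in CD4-Cre and 29 of the 183 UMIs in F/F cells. The level there was spread over many cells with 1 UMI, which were 107 of the 161 positive cells in CD4-Cre and 92 of the 126 in F/F.

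**Figure D1:**
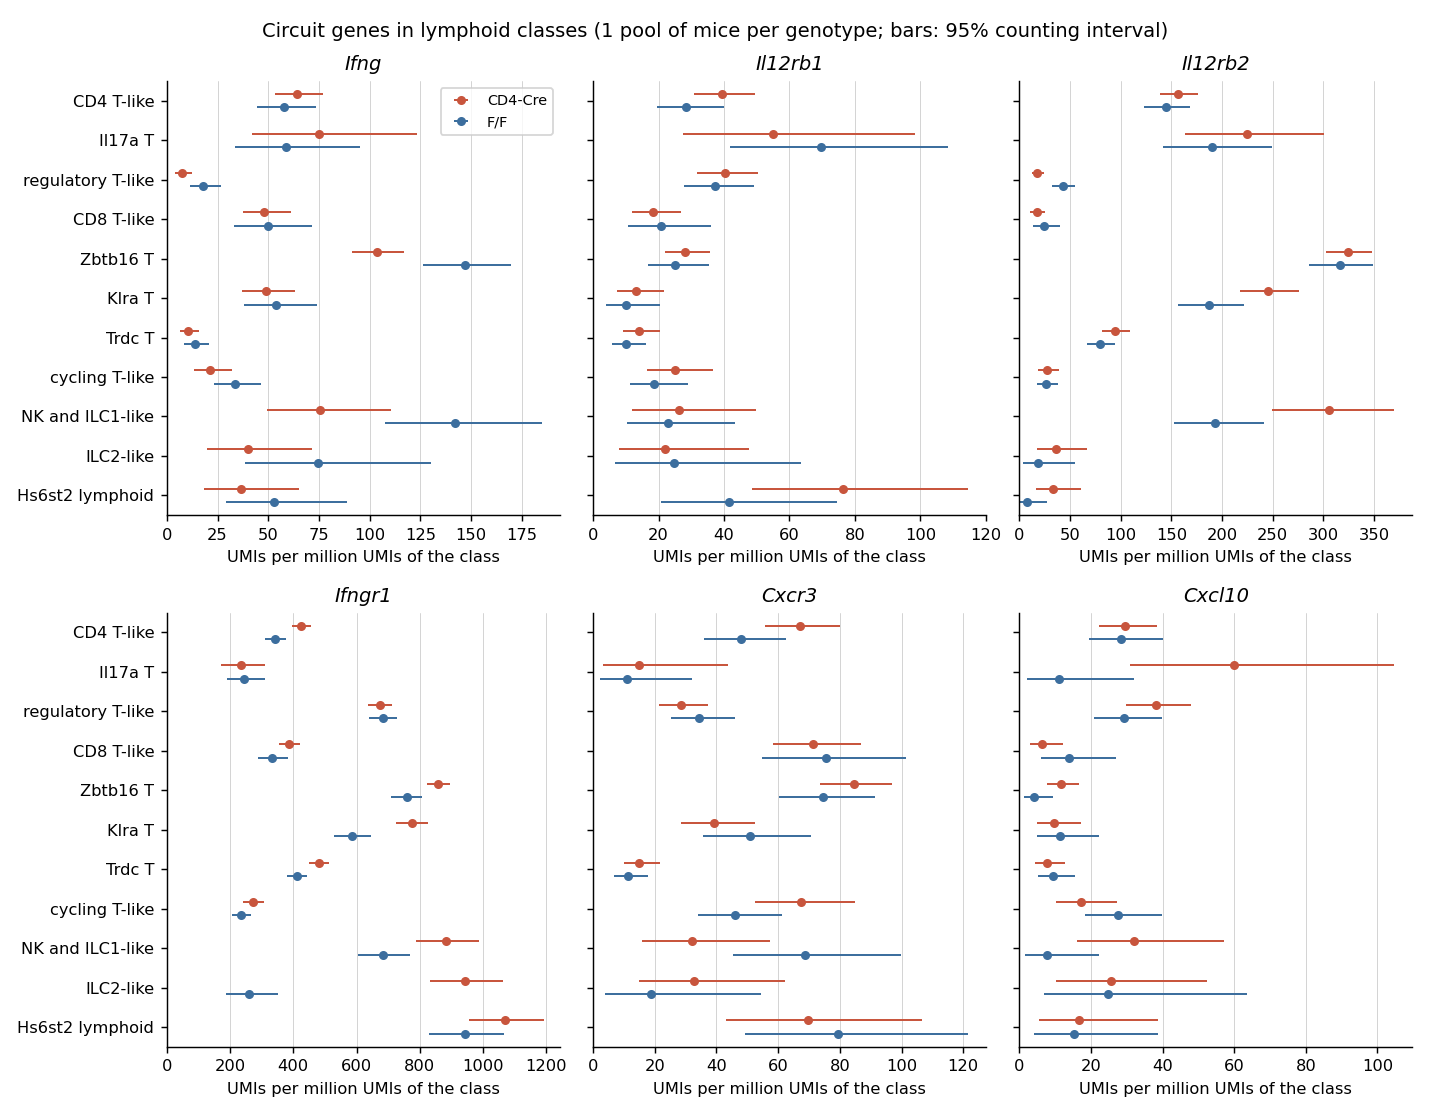
Levels of 6 circuit genes (x axes, CPM) in 11 of the 12 lymphoid classes (y axis), with CD4-Cre above F/F in each class and bars for the 95% counting interval of 1 pool. Ifng and Il12rb2 have their highest values in Zbtb16 T and NK and ILC1-like cells, and regulatory T-like cells are low in both. NK and ILC1-like cells lie close to Il17a T cells for Ifng in CD4-Cre and for Il12rb2 in F/F.

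Between the pools, Ifng was past the fold in 1 of the 7 classes with enough UMIs. In regulatory T-like cells its ratio was 0.413 (0.198 to 0.832), from 14 UMIs in 6 of 522 CD4-Cre cells and 24 UMIs in 10 of 353 F/F cells. This value rests on few cells, since the 5 highest cells held 13 of the 14 and 19 of the 24 UMIs, and it is 0.141 without them, with an interval that holds 1 (0.00298 to 1.26). In Zbtb16 T cells the ratio of 0.705 (0.581 to 0.857) left out 1 but was not past the fold. That class was made of 2 clusters whose sizes differed: the larger, led by Il4 and Zbtb16, had 132 CPM in 478 CD4-Cre cells and 145 CPM in 319 F/F cells, with overlapping intervals. The other, with histone genes among its leading genes, had 46.2 CPM (32.7 to 63.4) in 255 CD4-Cre cells and 170 CPM (92.7 to 285) in 27 F/F cells. The ratios were 1.12 (0.819 to 1.54) in CD4 T-like cells, 0.966 (0.617 to 1.55) for CD8 T-like cells, 0.906 (0.589 to 1.41) for Klra T cells and 0.751 (0.389 to 1.44) in Trdc T cells. Each of these 4 intervals holds 1.

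Il12rb2 (ENSMUSG00000018341, chr6:67291318-67376188, minus strand), the chain that makes the IL-12 receptor signal, had its highest values in the same classes as Ifng. Zbtb16 T cells had 325 CPM (303 to 348) in CD4-Cre and 316 CPM (286 to 349) in F/F cells, and 53.6% and 51.4% of them had a UMI. NK and ILC1-like cells had 305 CPM (250 to 369) and 193 CPM (152 to 242), Klra T cells 246 and 187 CPM, and Il17a T cells 225 and 190.2 CPM, in the same order. In F/F cells the NK and ILC1-like level was thus close to those of Klra T and Il17a T cells. CD4 T-like cells had 157 and 144 CPM and Trdc T cells 94.6 and 79.5 CPM. CD8 T-like cells stood apart: they had Ifng at 48.1 CPM in CD4-Cre and 49.8 CPM in F/F cells, close to CD4 T-like cells, yet Il12rb2 at 17.0 CPM (10.9 to 25.3) and 24.0 CPM (13.1 to 40.3). Plasma-like cells had 0.434 and 0.387 CPM.

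Il12rb2 was past the fold in regulatory T-like cells alone of the 7 classes with enough UMIs. There it was read at 17.5 CPM (33 UMIs in 16 of 522 cells) in CD4-Cre and 42.6 CPM (57 UMIs in 18 of 353 cells) in F/F cells, a ratio of 0.410 (0.259 to 0.640), and 0.393 without the 5 highest cells. The share of cells with a UMI was 1.77% (0.813 to 3.34) in CD4-Cre and 3.29% (1.66 to 5.82) in F/F cells after thinning, and these intervals overlap. The ratio was 1.03 (0.909 to 1.16) in Zbtb16 T cells, 1.08 (0.891 to 1.32) in CD4 T-like cells and 1.31 (1.06 to 1.63) in Klra T cells. Ifng and Il12rb2 were thus the 2 members past the fold among the 7 with enough UMIs in regulatory T-like cells, both lower, where 5.57% of the 8619 genes with at least 20 UMIs were past the fold, 3.68% higher and 1.89% lower.

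Il12rb1 (ENSMUSG00000000791, chr8:70808449-70821424, plus strand), the chain that the IL-12 and IL-23 receptors share, was read over a wider set of lymphoid classes. Hs6st2 lymphoid cells had 76.4 CPM (48.4 to 115) in CD4-Cre and 41.6 CPM (20.8 to 74.5) in F/F cells, and Il17a T cells 54.9 and 69.5 CPM. These classes have Il17a or ILC3 markers, and cells of that kind are known to respond to IL-23. Regulatory T-like cells had 40.2 and 37.4 CPM, CD4 T-like cells 39.3 and 28.4 CPM and Zbtb16 T cells 28.2 and 24.9 CPM. Regulatory T-like cells therefore had Il12rb1 at the level of CD4 T-like cells with the lower Il12rb2 given above. No class passed the fold for Il12rb1, and its ratios ran from 0.762 in plasma-like to 1.39 in Trdc T cells, with intervals that all held 1.

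Whether single cells with Ifng also held the IL-12 receptor gene was counted after thinning. Il12rb2 was found in 7 of 37 CD4 T-like cells with an Ifng UMI (18.9%) and in 17.3% of those without in CD4-Cre. In F/F cells it was found in 9 of 21 (42.9%, 21.8 to 66.0) with an Ifng UMI and 11.4% (7.96 to 15.6) without. F/F NK and ILC1-like cells showed the same order, 7 of 15 (46.7%) against 13.4%, and CD4-Cre ones 3 of 8 (37.5%) against 31.4%. In Zbtb16 T cells the shares with and without an Ifng UMI were 30.6% and 30.6% in CD4-Cre and 38.3% and 35.5% in F/F cells. Ccl5, a chemokine gene of effector T cells, was in 73.0% of CD4-Cre and 85.7% of F/F CD4 T-like cells with an Ifng UMI, and in 78.1% and 69.7% of those without. These counts are small and cover counting error only, and the difference between the libraries was not tested.

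Il12a (ENSMUSG00000027776, chr3:68690644-68698547, plus strand) was all but unread in the classes that could send IL-12. Of its 48 UMIs in CD4-Cre and 56 UMIs in F/F cells, 32 and 53 lay in plasma-like cells and 12 and 1 in B-like cells. Migratory DC-like cells had 2 UMIs in 1 of 70 CD4-Cre cells and none in 37 F/F cells. cDC1-like and macrophage-like cells had none, which allows up to 0.741 CPM in CD4-Cre and 0.910 CPM in F/F cDC1-like cells and up to 1.73 CPM in CD4-Cre and 1.19 CPM in F/F macrophage-like cells. Plasma-like cells had Il12a in 0.437% of CD4-Cre and 0.578% of F/F cells, at levels of 0.236 and 0.321 CPM with a ratio of 0.734 (0.458 to 1.16).

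Il12b (ENSMUSG00000004296, chr11:44400063-44414033, plus strand) was, in contrast, a transcript of few dendritic cells with many copies each. Migratory DC-like cells, marked by Ccr7, Fscn1 and Ccl22, held 79.1% of its 569 UMIs in CD4-Cre and 58.2% of its 134 UMIs in F/F cells while making up 0.559% and 0.294% of the cells. Their level was 414 CPM (377 to 454, 450 UMIs in 22 of 70 cells) in CD4-Cre and 134 CPM (106 to 167, 78 UMIs in 9 of 37 cells) in F/F cells. The share of cells with a UMI was 31.4% in CD4-Cre and 24.3% in F/F cells, and 20.6% (11.7 to 32.1) and 16.2% (6.19 to 32.0) after thinning. The positive cells differed more than the shares did: their median was 17.5 UMIs in CD4-Cre and 7 UMIs in F/F cells, with a highest cell of 76 and 22 UMIs. The class has under 100 cells, so no ratio was taken.

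cDC1-like cells, marked by Xcr1 and Clec9a and known for presenting antigen to CD8 T cells, had much lower Il12b. It was read at 11.9 CPM (8.74 to 15.7, 48 UMIs in 15 of 307 cells) in CD4-Cre and 3.34 CPM (1.66 to 5.97, 11 UMIs in 9 of 223 cells) in F/F cells. The ratio of 3.56 (1.82 to 7.59) was past the fold, but it was 2.63 with an interval that holds 1 (0.814 to 11.1) without the 5 highest cells, which held 35 of the 48 UMIs and 7 of the 11 UMIs. With coarser or finer clusters, which move cells between classes, it was 1.59 and 1.46. Macrophage-like cells had 7 UMIs in 3 of 347 CD4-Cre cells and 21 UMIs in 6 of 494 F/F cells, of which 12 lay in 1 cell. Over all myeloid cells other than neutrophil-like cells, mixed clusters included (a sum chosen after the data were seen), Il12b was at 46.0 CPM in 1016 CD4-Cre cells and 11.02 CPM in 1091 F/F cells, and 51 and 28 cells had a UMI.

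The p40 transcript was thus read almost without its partner chains in the migratory DC-like cells. After thinning, none of the 14 CD4-Cre and 6 F/F migratory DC-like cells with an Il12b UMI had a UMI of Il12a or of Il23a, the p19 chain of IL-23. Ccr7, the receptor gene for migration to lymph nodes, was found in 6 of 14 CD4-Cre cells with Il12b (42.9%, 17.7 to 71.1) and 14.8% (6.62 to 27.1) without, and in 1 of 6 F/F cells with Il12b and 16.1% without. Il23a was read at 6.92 CPM in CD4-Cre and 4.77 CPM in F/F macrophage-like cells and was not found in migratory DC-like cells of either library. Ebi3, which IL-27 shares with IL-35, was at 32.2 and 34.3 CPM in migratory DC-like cells, and Il15 at 21.2 and 44.6 CPM.

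**Figure D2:**
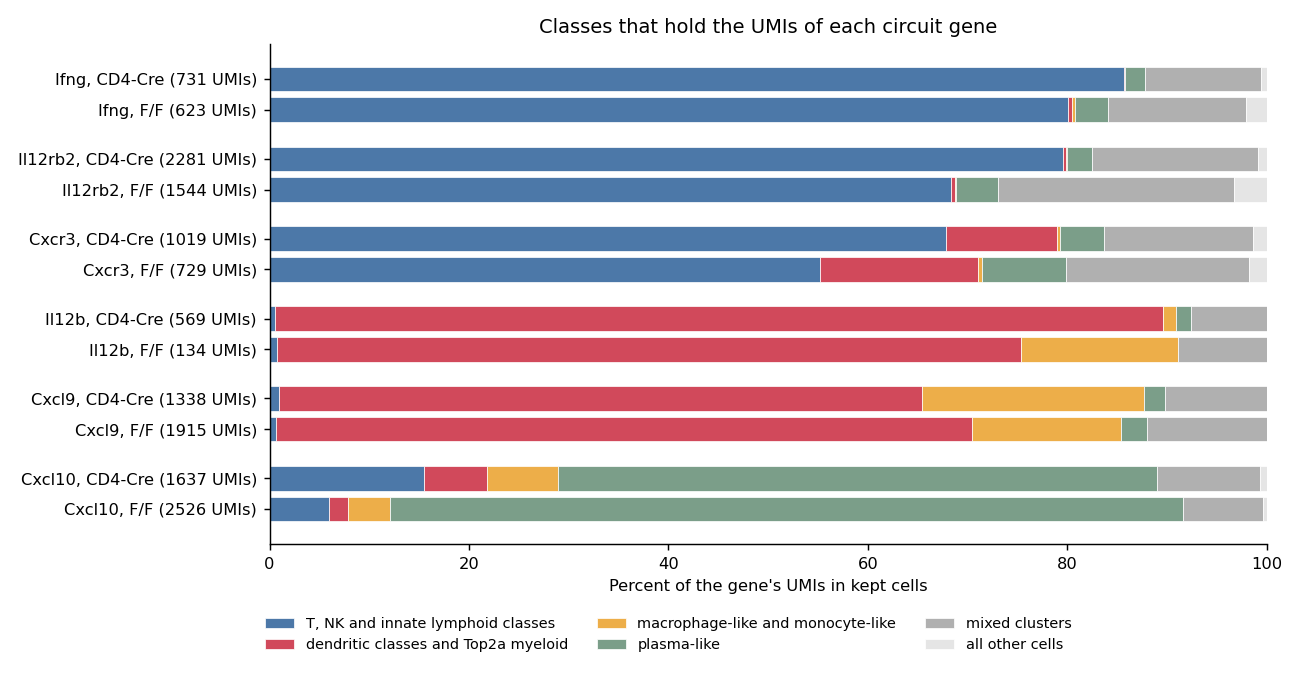
Share of each gene's UMIs in kept cells (x axis, percent) held by 6 groups of classes, with CD4-Cre above F/F for each of 6 genes. Ifng, Il12rb2 and Cxcr3 lie mostly in T, NK and innate lymphoid classes, Il12b and Cxcl9 mostly in dendritic classes, and Cxcl10 mostly in plasma-like cells, which are also most of the cells. Plasma-like cells held 60.0% of Cxcl10 UMIs in CD4-Cre and 79.5% in F/F, below their 76.6% and 83.4% of all UMIs.

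Ifngr1 (ENSMUSG00000020009, chr10:19591949-19610229, plus strand), the ligand-binding chain of the interferon-gamma receptor, was read in every class. Hs6st2 lymphoid cells had 1069 CPM in CD4-Cre and 942 CPM in F/F cells, NK and ILC1-like cells 883 and 683 CPM, and Zbtb16 T cells 858 and 758 CPM. Among myeloid classes, cDC1-like cells had the most, 508 and 430 CPM, and Top2a myeloid cells had 331 and 306 CPM. Macrophage-like cells had 264 and 232 CPM and migratory DC-like cells 117 and 175 CPM. B-like cells had 38.5 and 39.2 CPM. Plasma-like cells, at 6.40 and 5.63 CPM, lay below the 154 CPM of CD4-Cre and 136 CPM of F/F in barcodes with 10 to 100 UMIs, which hold free RNA rather than cells. ILC2-like cells had 942 CPM (831 to 1064, 67 cells) in CD4-Cre and 261 CPM (188 to 353, 40 cells) in F/F cells, in a class too small for a ratio whose libraries lie mostly in different clusters. The cluster led by Calca had 57 CD4-Cre and 13 F/F cells, with 990 CPM (868 to 1124) and 540 CPM (356 to 786), and the cluster led by Dach2 had 10 and 27 cells, with 620 CPM (388 to 938) and 135 CPM (75.6 to 223).

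Ifngr2 (ENSMUSG00000022965, chr16:91547072-91565623, plus strand), the signalling chain that the receptor also needs, had its highest levels in myeloid classes. Macrophage-like cells had 144 CPM (126 to 163) in CD4-Cre and 130.4 CPM (117 to 145) in F/F cells, cDC2-like cells 115 and 106 CPM, cDC1-like cells 92.9 and 93.4 CPM and migratory DC-like cells 68.1 and 60.0 CPM. T cell classes were near 0: CD4 T-like cells had 0.546 CPM (1 UMI) and 2.66 CPM (3 UMIs), CD8 T-like cells 2.83 and 1.72 CPM and Zbtb16 T cells 2.01 and 0 CPM. Regulatory T-like cells, at 11.6 CPM (22 UMIs) in CD4-Cre and 7.47 CPM (10 UMIs) in F/F cells, were the highest of the αβ T cell classes. At this depth, then, both receptor chains were read in the myeloid classes, while in the lymphoid classes Ifngr2 was in under 5% of cells, 4.69% of F/F Hs6st2 lymphoid cells being the highest share.

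Ifngr1 was not past the fold in any of the 9 classes. Its ratio was above 1 in 8 of them, between 1.13 in Zbtb16 T and 1.32 (1.18 to 1.49) in Klra T cells, and 0.986 (0.905 to 1.08) in regulatory T-like cells. These ratios stand beside a median over all genes of 1.08 in CD8 T-like cells, where that shift was over 0.1 on the log2 scale, and of 0.964 to 1.06 in the other classes. Ifngr2 ratios were 0.995 (0.853 to 1.16) in cDC1-like, 1.102 (0.931 to 1.30) in macrophage-like and 1.08 (0.933 to 1.25) in plasma-like cells, and 1.56 (0.708 to 3.69) in regulatory T-like cells. All 4 intervals hold 1.

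**Figure D3:**
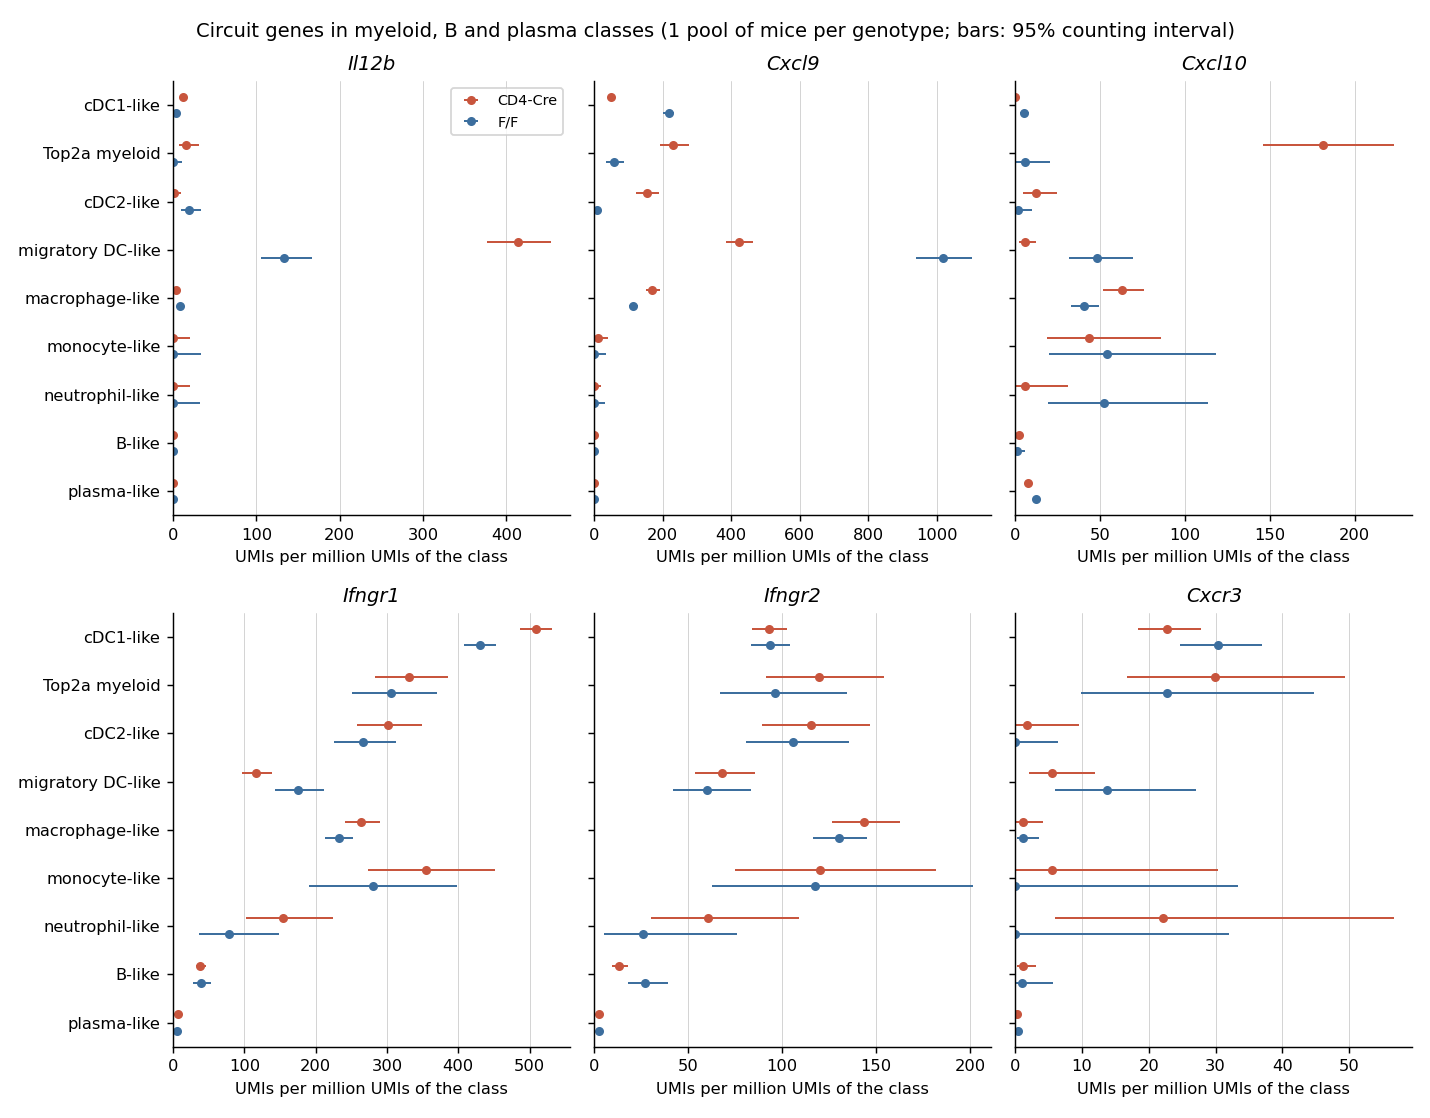
Levels of 6 circuit genes (x axes, CPM) in 9 myeloid, B and plasma classes (y axis), with CD4-Cre above F/F in each class and bars for the 95% counting interval of 1 pool. Il12b is highest in migratory DC-like cells, where CD4-Cre is at 414 and F/F at 134, while Cxcl9 there is at 424 in CD4-Cre and 1018 in F/F.

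Cxcl9 (ENSMUSG00000029417, chr5:92321347-92328079, minus strand) was read in dendritic and macrophage-like cells, and hardly in lymphoid ones, where each class held at most 5 UMIs. Migratory DC-like cells were the highest class, with 424 CPM (386 to 465, 461 UMIs in 44 of 70 cells) in CD4-Cre and 1018 CPM (938 to 1104, 594 UMIs in 19 of 37 cells) in F/F cells. As with Il12b, the shares of cells with a UMI lay close, 29.4% (19.0 to 41.7) in CD4-Cre and 21.6% (9.83 to 38.2) in F/F cells after thinning, while the copies per positive cell did not. The median positive cell held 2.5 UMIs in CD4-Cre and 12 UMIs in F/F cells, and the highest 60 and 150 UMIs. In summed level, CD4-Cre was thus above F/F for Il12b and below F/F for Cxcl9 in these cells. For Cxcl9, single F/F cells held 150, 125 and 99 of the 594 UMIs, and single CD4-Cre cells 60, 59 and 57 of the 461. The Cxcl9 difference thus rests in large part on few cells, and levels without them were not taken.

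cDC1-like cells showed the widest difference of any member that a ratio could be taken for. Cxcl9 was at 48.7 CPM (42.1 to 56.0, 197 UMIs in 67 of 307 cells) in CD4-Cre and at 217 CPM (202 to 234, 717 UMIs in 63 of 223 cells) in F/F cells, a ratio of 0.224 (0.190 to 0.262). Of the cells, 6 in CD4-Cre and 17 in F/F held more than 5 UMIs, and the highest held 25 and 224 UMIs. With the 5 highest cells of both libraries left out, it was 0.372, and with the class taken from coarser or finer clusters 0.342 and 0.369. The share of cells with a UMI was 21.8% in CD4-Cre and 28.3% in F/F cells, and 7.24% (4.59 to 10.8) and 10.4% (6.68 to 15.1) after thinning, with overlapping intervals. Both clusters of the class had the same order, 45.2 CPM in CD4-Cre and 164 CPM in F/F cells in one and 53.6 and 306 CPM in the other. Top2a myeloid cells, which have cell cycle markers and of which 85.2% in CD4-Cre and 65.2% in F/F had an Xcr1 UMI, had 231 CPM in CD4-Cre and 56.7 CPM in F/F cells. There, 107 of the 116 CD4-Cre UMIs lay in 1 cell, and with this cluster added to the cDC1-like cells the ratio was 0.341.

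Macrophage-like cells had Cxcl9 at 170.2 CPM (151 to 191, 295 UMIs in 32 of 347 cells) in CD4-Cre and 114 CPM (101 to 128, 286 UMIs in 53 of 494 cells) in F/F cells. The ratio of 1.497 (1.27 to 1.77) fell just short of the fold, and without the 5 highest cells it was 0.824. Its clusters went opposite ways: cells led by Ccr2 and Nr1h3 had 290.3 CPM in CD4-Cre and 107 CPM in F/F cells, and cells led by C6 and Mmp9 had 24.0 and 155 CPM. In cDC2-like cells 87 of the 89 CD4-Cre UMIs lay in 1 cell. Over all myeloid cells other than neutrophil-like cells, Cxcl9 was at 107 CPM in CD4-Cre and 153 CPM in F/F cells, and 188 of 1016 (18.5%) and 173 of 1091 (15.9%) cells had a UMI. A high level of Cxcl9 in a class was thus often the level of a handful of cells.

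**Figure D4:**
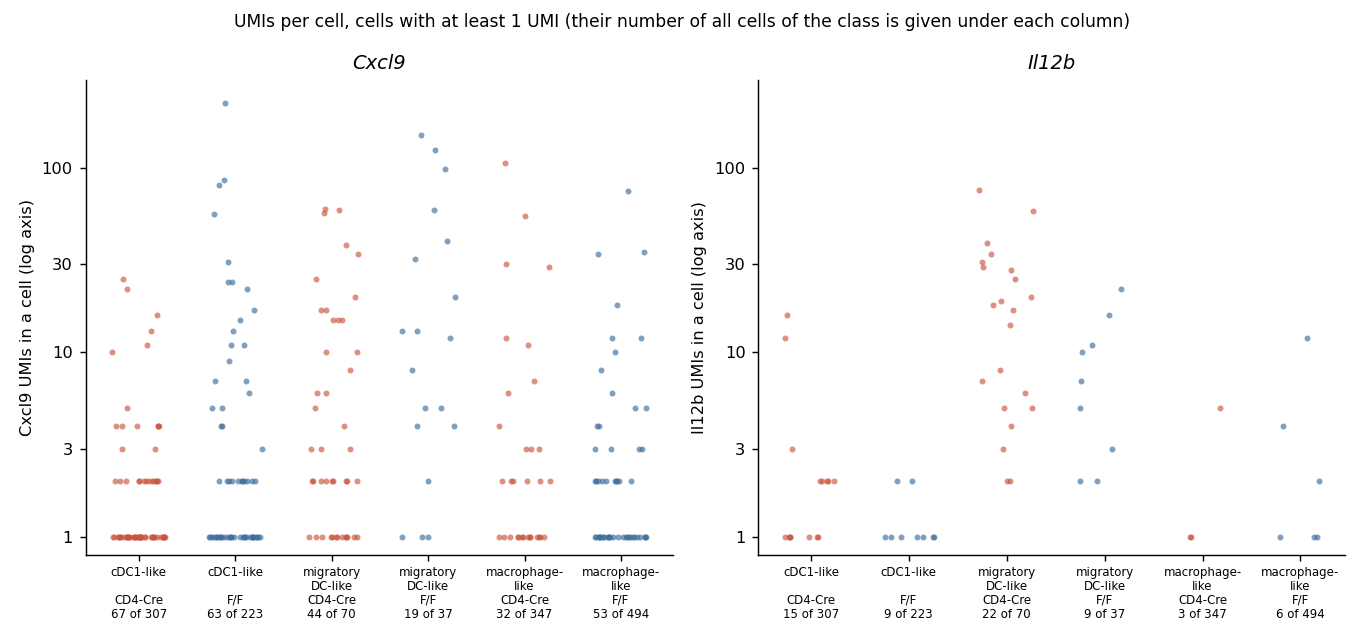
UMIs of Cxcl9 (left) and Il12b (right) in each cell that has at least 1 (y axes, log scale), for cDC1-like, migratory DC-like and macrophage-like cells, with CD4-Cre left of F/F. For Cxcl9, cells with over 20 UMIs number 2 in CD4-Cre and 8 in F/F cDC1-like cells, and for Il12b 8 in CD4-Cre and 1 in F/F migratory DC-like cells.

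The cells with the most Cxcl9 and those with the most Il12b were compared. In the CD4-Cre library the 5 cells with the most Il12b, all migratory DC-like and with 31 to 76 UMIs, held 0 to 3 Cxcl9 UMIs, 4 of them at least 2. Of the 5 F/F cells with the most Il12b, 1 held 10 Il12b and 8 Cxcl9 UMIs and the others no Cxcl9. The 5 cells with the most Cxcl9 in each library held no Il12b, except 1 F/F migratory DC-like cell with 99 Cxcl9 and 3 Il12b UMIs. After thinning, Il12b was found in 3 of 20 CD4-Cre migratory DC-like cells with Cxcl9 and 22.9% of those without, and in 0 of 8 F/F cells with Cxcl9 and 20.7% of those without. The intervals overlap, so a difference was not detectable at this depth. In macrophage-like cells, Gbp2, a guanylate-binding protein gene that interferon-gamma induces, was found in 6 of 18 CD4-Cre cells with Cxcl9 (33.3%, 13.3 to 59.0) against 3.05% (1.40 to 5.71) without, and in 6 of 30 F/F cells (interval 7.71% to 38.6%) against 4.48% (2.72 to 6.91).

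Cxcl10 (ENSMUSG00000034855, chr5:92346638-92348889, minus strand) was read, like Cxcl9, in macrophage-like cells, but also in T cell classes. Macrophage-like cells had 62.9 CPM (51.6 to 75.9, 109 UMIs in 36 of 347 cells) in CD4-Cre and 40.5 CPM (33.1 to 49.2, 102 UMIs in 43 of 494 cells) in F/F cells. CD4 T-like and regulatory T-like cells, which had next to no Cxcl9, had Cxcl10 at 29.5 and 38.1 CPM in CD4-Cre and at 28.4 and 29.1 CPM in F/F cells. cDC1-like cells had none in 307 CD4-Cre cells and 17 UMIs in 6 of 223 F/F cells (5.15 CPM), and migratory DC-like cells had 5.52 CPM (6 UMIs) in CD4-Cre and 48.0 CPM (28 UMIs) in F/F cells. In cDC1-like and migratory DC-like cells both chemokines were therefore lower in CD4-Cre, but the 2 partly share the same few F/F cells. The F/F cDC1-like cell with 224 Cxcl9 UMIs held 8 of the 17 Cxcl10 UMIs. F/F migratory DC-like cells with 150, 125 and 99 Cxcl9 UMIs held 3, 3 and 10 of the 28 Cxcl10 UMIs.

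Between the pools, Cxcl10 was past the fold in 3 classes, in opposite directions. In macrophage-like cells the ratio was 1.55 (1.17 to 2.05), and 1.27 (0.835 to 1.92) without the 5 highest cells, an interval that holds 1. The cluster with Cd163 and Vcam1 among its leading genes had 170.1 CPM in CD4-Cre and 40.9 CPM in F/F cells. In Zbtb16 T cells it was 2.91 (1.11 to 9.63), from 29 UMIs in 16 of 733 CD4-Cre cells and 5 UMIs in 3 of 346 F/F cells, at levels of 11.7 and 4.01 CPM that are near those of free RNA given below; without the 5 highest cells F/F had none left. In plasma-like cells it was 0.595 (0.551 to 0.643), from 983 UMIs in 391 of 7323 CD4-Cre cells and 2008 UMIs in 705 of 8823 F/F cells. The ratios were 1.04 (0.659 to 1.66) in CD4 T-like, 1.31 (0.874 to 1.98) in regulatory T-like and 0.826 (0.376 to 1.81) in Trdc T cells.

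The plasma-like level of Cxcl10, 7.23 CPM in CD4-Cre and 12.2 CPM in F/F cells, lay close to that in barcodes of 10 to 100 UMIs, 7.41 and 11.04 CPM, and above the 4.49 and 8.38 CPM in barcodes of 150 to 350 UMIs. Scaled by pancreatic and stomach RNA, free RNA came to 44.0% of plasma-like RNA in CD4-Cre and 86.5% in F/F cells by the lower range, and to 5.12% and 11.6% by the higher one. Single plasma-like cells reached 20 UMIs in CD4-Cre and 48 UMIs in F/F, and the median positive cell held 1 in each library. Of 8 plasma-like clusters with enough cells in both libraries, 7 were lower in CD4-Cre, 6 of them with intervals apart, and the exception was led by the mitosis gene Cdc20. When the free RNA of barcodes of 10 to 100 UMIs was subtracted, the ratio turned to 1.53, and with that of barcodes of 150 to 350 UMIs it was 0.626. For Ifngr1 the lower range took away too much. It was at 154 CPM in CD4-Cre and 136 CPM in F/F in those barcodes, and at 6.40 and 5.63 CPM in plasma-like cells. At the shares given, free RNA alone would bring more than that, so the 1.53 is not read as a result.

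Cxcr3 (ENSMUSG00000050232, chrX:101731535-101734269, minus strand), the receptor for both chemokines, was read in T cells and in cDC1-like cells. Zbtb16 T cells had 84.6 CPM in CD4-Cre and 74.6 CPM in F/F cells, CD8 T-like cells 71.4 and 75.5 CPM and CD4 T-like cells 67.1 and 47.9 CPM. NK and ILC1-like cells had 32.0 CPM (16.0 to 57.2) in CD4-Cre and 68.6 CPM (45.2 to 99.8) in F/F cells. Trdc T cells, at 14.99 and 11.3 CPM, and Il17a T cells, at 14.97 and 10.97 CPM, were the lowest T cell classes. cDC1-like cells had 22.7 CPM (92 UMIs in 72 of 307 cells) in CD4-Cre and 30.3 CPM (100 UMIs in 77 of 223 cells) in F/F cells, against 1.72 and 0 CPM in cDC2-like and 1.15 and 1.19 CPM in macrophage-like cells. Barcodes with 10 to 100 UMIs had 20.9 and 16.2 CPM, close to the cDC1-like level, while the other myeloid classes just named lay far below both. No class passed the fold, and the ratios included 1.40 (1.01 to 1.97) in CD4 T-like, 1.13 (0.884 to 1.46) in Zbtb16 T and 0.750 (0.558 to 1.005) in cDC1-like cells.

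**Figure D5:**
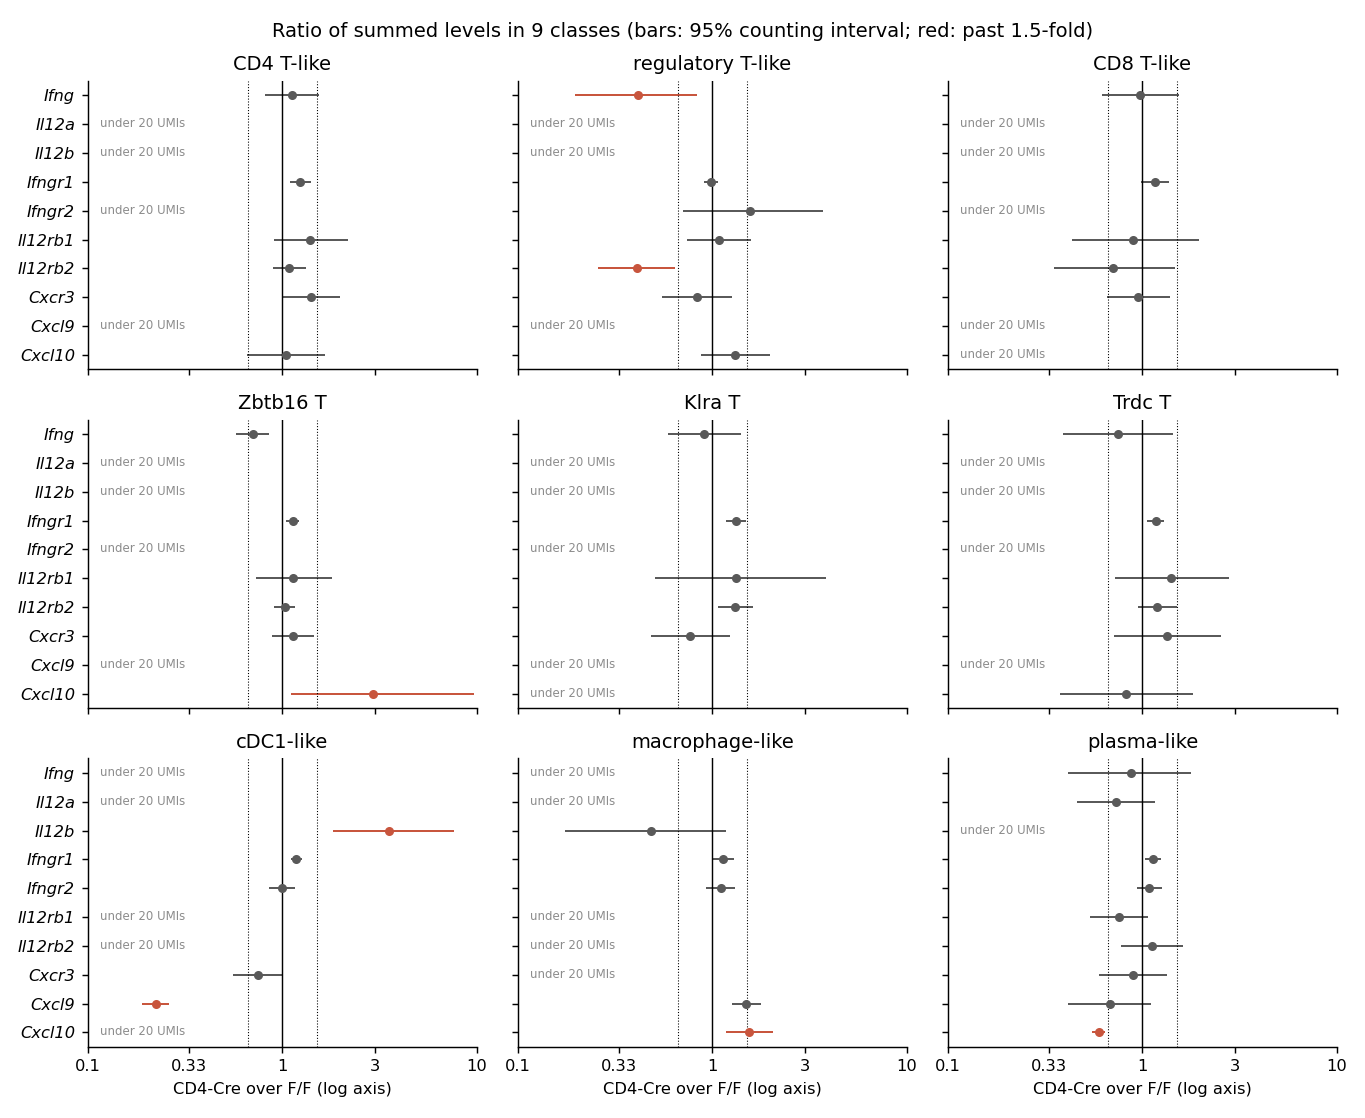
Ratio of CD4-Cre over F/F levels (x axes, log scale) for each member with at least 20 UMIs in 9 classes, with 95% counting intervals, dotted lines at the fold limits of 1.5 and 0.667, and red for ratios past the fold. The widest departure is Cxcl9 in cDC1-like cells at 0.224, and most lymphoid ratios lie between the dotted lines.

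The members past the fold were read against every gene that had 20 or more UMIs in the class, the minimum used for members. In cDC1-like cells 2 of 5 members were past it, Il12b higher and Cxcl9 lower, where 4.45% of 9621 genes were, 1.78% higher and 2.67% lower. In macrophage-like cells it was 1 of 5, with a background of 5.57% (2.22% higher, 3.35% lower), in plasma-like cells 1 of 9, with 6.94% (3.55% higher, 3.39% lower), and in Zbtb16 T cells 1 of 6, with 4.58% (2.54% higher, 2.04% lower). In CD4 T-like cells it was 0 of 6, with 6.16% (3.87% higher, 2.30% lower), in CD8 T-like cells 0 of 5, with 8.75% (6.12% higher, 2.62% lower), in Klra T cells 0 of 5, with 6.32% (3.92% higher, 2.41% lower), and in Trdc T cells 0 of 6, with 5.95% (3.78% higher, 2.16% lower). Each class has 5 to 9 members with enough UMIs, so 1 member is already a larger share than any of these backgrounds, and nothing is read from such a count of 1.

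Genes downstream of the circuit were followed through a list of 27 interferon-gamma targets, which includes the guanylate-binding protein and immunity-related GTPase genes and those for antigen processing. In CD4 T-like cells 3 of the 21 with at least 50 UMIs were past the fold, all higher in CD4-Cre, where 5.98% of all genes with that many UMIs were (3.92% higher, 2.06% lower). Gbp6 had 54.0 CPM in CD4-Cre and 30.1 CPM in F/F cells, Gbp7 103 and 64.7 CPM and Iigp1 47.5 and 25.7 CPM, with ratios of 1.79, 1.59 and 1.85. The median log2 ratio of the list was 0.21, beside 0.09 over all genes. In Trdc T cells Gbp6 and Gbp9 were higher (ratios of 1.83 and 1.63, 2 of 18), where 5.38% of all genes were past the fold (3.59% higher, 1.79% lower). In CD8 T-like cells Irf1 (1.58) and Gbp9 were higher, 2 of 17, near the 10.0% of all genes past the fold there (7.28% higher, 2.73% lower). Klra T cells had Irgm2 (0.365) and Cd274, the gene for PD-L1 (0.637), lower, 2 of 17, beside 6.36% of all genes (4.35% higher, 2.01% lower), and Zbtb16 T cells had Icam1 (0.628) lower, 1 of 20, beside 4.15% (2.33% higher, 1.83% lower). In regulatory T-like cells Gbp9 was higher and Irgm2 (0.615) lower, of 22, beside 5.36% of all genes (3.69% higher, 1.67% lower).

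In the myeloid classes with Cxcl9, few targets were past the fold. None of the 12 targets with enough UMIs in cDC1-like cells was past the fold, where 3.75% of all genes were (1.55% higher, 2.21% lower), with a median log2 ratio of -0.05 beside 0.03 over all genes. In macrophage-like cells 1 of 21 was, beside 5.27% of all genes (2.06% higher, 3.21% lower), Socs1, a feedback inhibitor of the receptor, at 9.81 CPM in CD4-Cre and 19.5 CPM in F/F cells (0.504, 0.272 to 0.890). In plasma-like cells Ciita, the regulator of MHC class II genes, was higher (3.09, at 1.21 CPM in CD4-Cre and 0.393 CPM in F/F cells) and Irgm1 lower (0.649), of 24, beside 5.74% of all genes (2.62% higher, 3.12% lower). Ciita was at 207 and 222 CPM in cDC1-like and 155 and 178 CPM in macrophage-like cells. The plasma-like cluster led by Lyz2, Apoe and H2-Aa, with 107 CD4-Cre and 34 F/F cells, held no Ciita UMI, and the ratio without it was 3.09. Of the 8 genes of interferon-gamma signalling, Irf1 in CD8 T-like cells and Socs1 in macrophage-like cells were the only ones past the fold in any of the 9 classes.

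In a list of 14 genes of IL-12 and type 1 signalling, the chemokine gene Ccl5 was lower in regulatory T-like cells, at 295 CPM in CD4-Cre and 495 CPM in F/F cells (0.595, 0.531 to 0.667), beside Ifng and Il12rb2. In cDC1-like cells Ccl5 was instead higher, 20.5 and 10.0 CPM (2.05, 1.35 to 3.17), 1 of 5, beside 3.75% of all genes (1.55% higher, 2.21% lower). In plasma-like cells Il18r1 was higher (1.58, at 0.611 CPM in CD4-Cre and 0.387 CPM in F/F cells), 1 of 12, beside 5.74% (2.62% higher, 3.12% lower). For scale, CD8 T-like cells had Ccl5 at 15377 and 12671 CPM, and Zbtb16 T cells had Il18r1 at 201 and 202 CPM. The part of free RNA in these low levels was not tested. CD8 T-like, Zbtb16 T, Klra T, Trdc T and macrophage-like cells had none past the fold, of 9 to 12. Of 9 other genes of the IL-12 family, Il23r in plasma-like cells was lower (0.608, 34 and 68 UMIs) and no other was past the fold.

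Levels of these genes differed between classes. Tbx21, the type 1 master regulator, had 167 CPM in CD4-Cre and 223 CPM in F/F Zbtb16 T cells, 221 and 279 CPM in NK and ILC1-like cells, 43.1 and 50.5 CPM in CD4 T-like cells and 54.5 and 42.9 CPM in CD8 T-like cells. Stat4, through which IL-12 acts, was at 397 CPM in CD4-Cre and 348 CPM in F/F CD8 T-like cells, close to the 420.0 and 419 CPM of Zbtb16 T cells, so CD8 T-like cells were low in the receptor gene Il12rb2 but not in Stat4. Il18r1, a receptor chain for IL-18, which also drives interferon-gamma, was at 201 and 202 CPM in Zbtb16 T cells and at 21.9 and 13.7 CPM in CD8 T-like cells. Nos2, which interferon-gamma induces in inflammatory macrophages, was at 0 in all 8 classes where list levels were taken.

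Across the 18 class and library profiles of 9 classes, the genes whose log2(CPM + 1) ran closest to that of a member were found by Pearson correlation, as a description of profiles that share libraries and free RNA. Ifng ran closest to Eya2 (r = 0.98), Pik3ip1 and Thy1 (0.97 each). Il12rb2 ran closest to Rnf144a, Sytl3 and Gm33104 (0.97 to 0.98) and Cxcr3 to the ribosomal protein genes Rpl12, Rpl19 and Rpl17 (0.97). Il12b ran closest to Tifab, Trpm2 and Psap (0.95 to 0.96), Cxcl9 to Trpm2, Mpeg1 and Rnf150 (0.97), and Cxcl10 to Tank, Ascc3 and Casp4, with lower values of 0.85 to 0.87. Migratory DC-like cells, the highest class for Il12b and Cxcl9, are not among the 9 classes, so these profiles leave them out.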

How the data were processed

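CD45+ small intestine lamina propria cells of 1 pool of 3 mice per genotype were sequenced with the 10x 3′ assay. The authors' deposited values are UMI counts per gene and barcode, made with Cell Ranger 7.2.0 on mm10 (GRCm38), per the submitters' processing notes; Seurat 5.0.1 is also named there and was not used. Barcodes with at least 1000 UMIs, 500 genes and at most 10% mitochondrial UMIs were kept. Both libraries were clustered together without the circuit genes, the pathway lists, immunoglobulin, T cell receptor, acinar and gastric genes (2000 variable genes, 30 components, 15 neighbours, Leiden resolution 1). Clusters became classes by limits on marker shares that were set after the data were seen. Levels of 1 small lymphoid class and of some pathway genes are not reported here. Mixed clusters were kept out of classes, and doublets were not removed by a caller. Member and pathway lists were chosen with earlier results of these data known. The genes named outside the members are the pathway genes past the fold and the 3 genes closest to a member over the class profiles, with some pathway levels and leading genes chosen after their values were seen. Counts were summed per class, since cells are not replicates, with exact Poisson intervals for levels, exact Clopper-Pearson intervals for shares and exact intervals of the binomial split for ratios, all at 95% and all for counting error only. A count of 0 was taken to allow 3 counts. All genes with at least 50 UMIs in a class gave the background of the pathway lists, and those with at least 20 UMIs that of the members. The ratio step was tested on simulated data. Python 3.11.15, numpy 2.4.6, scipy 1.17.1, pandas 2.3.3, scanpy 1.11.5, leidenalg 0.10.2, scikit-learn 1.9.0 and matplotlib 3.10.9 were used. The alternatives changed the scaling, filters, clusters, free RNA, depth and highest cells.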

Additional observations from a re-analysis of the deposited data

Results flagged for a closer look

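Cxcl10, which encodes a ligand of CXCR3, stood past the fold in opposite directions between classes. Its ratio of CD4-Cre over F/F was 2.91 in Zbtb16 T cells and 1.55 in macrophage-like cells, and 0.595 in plasma-like cells. Without the 5 highest cells the macrophage-like ratio was 1.27, with an interval that holds 1 (0.835 to 1.92), and F/F Zbtb16 T cells, at 4.01 CPM, had no UMI left. The plasma-like ratio was 1.53 after the free RNA of barcodes with 10 to 100 UMIs was subtracted, a value not read as a result above. After the free RNA of barcodes with 150 to 350 UMIs was subtracted, it was still lower in CD4-Cre. The Zbtb16 T and macrophage-like ratios given here are without subtraction, so directions after subtraction are not compared. The difference between classes was not tested, since each genotype is 1 pool.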

How the results depend on the processing

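No paired analysis was possible because each genotype is 1 pooled library. For the same reason no replicate could be left out. Under the alternatives, 66 values of the main ratios stayed within the counting interval of the reported ratio, 8 moved beyond it and 1 was reversed. Without the 5 highest cells, the ratio of Ifng in regulatory T-like cells was 0.141 and that of Cxcl9 in cDC1-like cells 0.372. The Cxcl9 ratio in cDC1-like cells was 0.278 as a mean of per-cell CPM, 0.342 at Leiden resolution 0.5, 0.369 at resolution 2, and 0.341 with the Top2a myeloid cluster added, an alternative chosen after seeing the data. The Il12b ratio there was 1.59 at resolution 0.5 and 1.46 at resolution 2. Subtracting the free RNA of barcodes with 10 to 100 UMIs turned the Cxcl10 ratio in plasma-like cells to 1.53, and the cause was not tested. That free RNA came to 12.2% to 135% of the RNA of a class, so some values could not be given. With the free RNA of barcodes with 150 to 350 UMIs subtracted instead, plasma-like Cxcl10 was still lower in CD4-Cre. Requiring 200 UMIs left fewer genes past the fold: 56 in CD4 T-like, 54 in regulatory T-like, 107 in CD8 T-like, 49 in Zbtb16 T, 45 in Klra T, 60 in Trdc T, 52 in cDC1-like, 66 in macrophage-like and 353 in plasma-like cells. Requiring 20 UMIs gave 452 in Klra T cells. Of the other ratios, 486 values stayed within the interval and 16 moved. Without thinning, or with thinning to 3000 UMIs, 26 shares moved and 6 did not, and a pseudocount of 10 left fewer than 2 of the 3 closest genes in 3 of 6 lists. Depth limits the members with few UMIs, Il12a most of all.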
